A study of Mus musculus with 5 samples.

Results

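The 10 genes described here encode the parts of the MHC class I pathway, and they were found by symbol among the 32285 genes of a single-cell RNA-seq matrix of mouse kidney. All 10 symbols matched 1 row each: H2-K1, H2-D1, B2m, Tap1, Tap2, Tapbp, Psmb8, Psmb9, Psmb10 and Nlrc5. The kidneys came from male C57BL/6J mice aged 6 to 8 weeks, either sham-operated or taken 1, 3, 14 or 28 days after unilateral ischemia-reperfusion (UIR), in which the left renal pedicle was clamped for 35 min and the right kidney was left intact. By the labels, each of the 5 kidney samples came from 3 mice, and cells were captured on the 10x Genomics platform with 3′ chemistry. The study's methods count more matrices than there are libraries here, so whether mice were pooled before capture or captures were merged later is not settled. The matrix holds the raw unique molecular identifier (UMI) counts of 5 libraries, told apart by the number at the end of each barcode. The labels do not tie that number to sham or to a day, so the libraries are called 1 to 5, values are given for each, and no test between conditions was possible.

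After cell calling and filtering, 57633 cells remained, with 8263 to 19021 cells in a library and a median of 4038 to 5331 UMIs per cell. Summed UMIs of the kept cells were 56226962, 65321471, 94867113, 51090538 and 52159849 in libraries 1 to 5. Of 57281 distinct barcode sequences, 351 occurred in more than 1 library. The sample labels name the cell type as goblet cells. The defining goblet cell genes were near absent, with 21 Muc2 UMIs, 2 Clca1 UMIs and 0 Zg16 UMIs in all 57633 cells, and kidney tubule markers placed 44882 cells in the proximal tubule class, so the label was not used. Cells were placed in a class by the marker genes of that class, none of which is a member. This put 51449 cells in 14 classes: 7 immune classes, endothelial cells, and 6 tubule classes. The immune classes held 937 neutrophils, 594 monocytes, 831 macrophages, 120 dendritic cells, 1106 T cells, 190 NK cells and 361 B cells. There were 352 endothelial cells. Besides proximal tubule cells, the tubule classes were 589 injured tubule cells, 758 thick ascending limb cells, 352 distal convoluted tubule cells, 259 principal cells and 118 intercalated cells. No class could be given to 5917 cells. Close to the minimum marker score of 0.1, between 0.08 and 0.12, the most cells were in the proximal tubule class (438 inside and 376 outside).

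MHC class I molecules show short peptides from the cell's own proteins at the cell surface, where CD8 T cells and NK cells read them. H2-K1 and H2-D1 are the classical heavy chains of the C57BL/6 mouse, and B2m is the light chain that every class I molecule needs. Psmb8, Psmb9 and Psmb10 are the catalytic subunits of the immunoproteasome, which take the places of Psmb5, Psmb6 and Psmb7 in the constitutive proteasome. Tap1 and Tap2 form the transporter that carries peptides into the endoplasmic reticulum, and Tapbp (tapasin) holds empty class I molecules beside it. Nlrc5 is the transactivator of class I genes, and interferon-gamma is a known inducer of the whole group. In the kidney, tubule epithelium is known to carry little class I at rest and more under inflammation.

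Most of the members are clustered in the genome (mm10, GRCm38). H2-K1 spans chr17:33996017-34000347 on the minus strand, H2-D1 chr17:35262730-35267499 on the plus strand and B2m chr2:122147686-122153083 on the plus strand. Tap1, Tap2, Tapbp, Psmb8 and Psmb9 are also on chromosome 17, and Psmb10 and Nlrc5 are on chromosome 8. None of the 90-base words in the last 400 transcript bases of any member was found in another gene of the annotation, which includes the pair of heavy chains H2-K1 and H2-D1. Tapbp overlaps Zbtb22 on the same strand.

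Upstream sequence from RefSeq (GRCm38.p6) was present for 8 of the 10 members, all but Tap2 and Nlrc5, and 2 of these sequences are printed because they show a spacing that the light chain shares with the heavy chains. Each runs 5′ to 3′ over the 250 bases before the start. The capitals mark matches to 4 motifs searched on both strands: TGACG, as in the cAMP element, CCAAT, GAAANNGAAA, as in interferon-stimulated elements, and TTCNNNGAA, as in gamma-activated sites. A match is a description of the letters and not a shown binding site.
H2-K1 (chr17:34000348-34000597, minus strand): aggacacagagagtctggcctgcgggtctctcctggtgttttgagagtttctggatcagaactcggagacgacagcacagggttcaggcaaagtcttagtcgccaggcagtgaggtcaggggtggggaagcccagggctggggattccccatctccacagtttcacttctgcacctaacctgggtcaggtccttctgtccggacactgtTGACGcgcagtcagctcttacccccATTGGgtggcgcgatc
B2m (chr2:122147437-122147686, plus strand): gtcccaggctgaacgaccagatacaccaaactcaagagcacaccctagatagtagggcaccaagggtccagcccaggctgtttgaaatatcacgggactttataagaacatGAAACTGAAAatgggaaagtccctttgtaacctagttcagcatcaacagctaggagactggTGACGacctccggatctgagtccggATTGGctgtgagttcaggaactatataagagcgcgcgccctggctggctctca

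In H2-K1, H2-D1 and B2m, TGACG is followed by 20 bases and then by ATTGG, which is CCAAT on the other strand. The 3 stretches of 30 bases are set under each other here to show the shared outer letters. Of the 20 inner bases, 13 match between H2-K1 and H2-D1, 3 between H2-K1 and B2m and 2 between H2-D1 and B2m.
H2-K1 (chr17:34000359-34000388, minus strand): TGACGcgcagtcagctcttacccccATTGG
H2-D1 (chr17:35262993-35263022, plus strand): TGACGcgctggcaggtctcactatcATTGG
B2m (chr2:122147609-122147638, plus strand): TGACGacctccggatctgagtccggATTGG

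This spaced pair occurred in 30 of 32851 promoter windows (0.0913%), of 26 genes, and was looked for after the motif positions of the members had been seen. Besides the 3 members, the 26 genes include H2-M3, a non-classical class I heavy chain. The pair was not found in the windows of Tap1, Tapbp, Psmb8, Psmb9 or Psmb10. Alone, TGACG was in 17.8% of windows and CCAAT in 33.8%. GAAANNGAAA was in 2.98% of windows and, among the members with an entry, only in B2m, with its first base 139 bases before the start. TTCNNNGAA was in 7.02% of windows and, among those members, only in Psmb8. The windows of Tap1 and Psmb9, neighbours on opposite strands, share 225 bases, so these 2 genes count as 1 upstream region. The H2-D1 stretch lies before the RefSeq start, but inside the longer span that the gene annotation gives H2-D1.

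Levels are given as CPM, the usual count scaled to a fixed total: the UMIs of a gene summed over the cells of a class, divided by all UMIs of that class and scaled to 1e+06, with the exact 95% Poisson interval in brackets where it matters. A UMI stands for 1 captured 3′ end whatever the transcript's length, so CPM were not divided by length. The intervals cover counting error only, and cells are not replicates.

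Pooled over libraries, the heavy chains and B2m were highest in T cells. The heavy chains were lowest in proximal tubule cells, where the H2-D1 interval overlapped that of distal convoluted tubule cells. B2m was lowest in thick ascending limb cells, where its interval overlapped that of distal convoluted tubule cells at 75.9 CPM (64.0 to 89.3). Within library 5 distal convoluted tubule cells were the lower of these, at 32.0 CPM. H2-K1 was at 3090 CPM (3018 to 3163) in T cells, 2302 CPM in NK cells, 1695 CPM in dendritic cells, 1259 CPM in macrophages, 1195 CPM in B cells and 1164 CPM in endothelial cells. It was at 809 CPM in injured tubule cells, 611 CPM in monocytes, 477 CPM in principal cells, 406 CPM in neutrophils, 335 CPM in intercalated cells, 248 CPM in thick ascending limb cells, 211 CPM in distal convoluted tubule cells and 92.8 CPM (91.6 to 93.9) in proximal tubule cells. In this pooled order of H2-K1 levels, macrophages and B cells overlapped in their counting intervals, as did B cells and endothelial cells. The order is that of libraries of unequal make-up, and parts of it were not seen within libraries. H2-K1 in NK cells was at 4688, 2469, 1409 and 2700 CPM in libraries 1 to 4, beside 4241, 2682, 1489 and 2753 CPM in T cells, with overlapping intervals in all 4. H2-K1 in monocytes was at 1552, 1207, 423 and 740 CPM in those libraries, at or above injured tubule cells in each, while library 3, the lowest, held 432 of the 594 monocytes.

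The order was not the same for the other surface chains. H2-D1 was at 2016 CPM in T cells, 1669 CPM in dendritic cells, 1654 CPM in NK cells, 1512 CPM in endothelial cells, 1506 CPM in macrophages and 1437 CPM in neutrophils, and at 103 CPM in proximal tubule cells. B2m was at 2110 CPM in T cells, 1735 CPM in dendritic cells, 1655 CPM in macrophages and 898 CPM in neutrophils, at 138 CPM (136 to 139) in proximal tubule cells, and at 64.5 CPM (57.5 to 72.1) in thick ascending limb cells. In library 4, H2-D1 was at 2456 CPM in NK cells and 1658 CPM in T cells, and in library 5, B2m was at 2630 CPM in macrophages and 2084 CPM in T cells. In the pooled values neutrophils were above monocytes (1045 CPM) and B cells (1046 CPM) in H2-D1 and below all other leukocytes in H2-K1. Of the UMIs of both heavy chains, H2-K1 made up between 20.4% and 23.8% in neutrophils, 36.9% in monocytes, 45.5% in macrophages, 60.5% in T cells, 47.4% in proximal tubule cells and 66.7% (62.8 to 70.5) in distal convoluted tubule cells, by exact binomial 95% intervals.

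Among the peptide supply genes, dendritic cells had the highest pooled Psmb8, Psmb9, Tap1 and Tapbp, but not Tap2 or Psmb10. For Tapbp they were also highest within library 1, at 208 CPM, but not within library 2. There Tapbp was at 188 CPM in dendritic cells, 213 CPM in NK cells, 205 CPM in monocytes and 202.5 CPM in endothelial cells. These values came from 59, 28, 59 and 137 cells and are given without intervals, so their order is not settled. Psmb10 was at 242 CPM in NK cells, 214 CPM in T cells, 160 CPM in monocytes and 149 CPM in dendritic cells. Psmb8 was at 958 CPM in dendritic cells, 733 CPM in T cells, 389 CPM in NK cells, 341 CPM in monocytes, 314 CPM in macrophages, 284 CPM in B cells, 238 CPM in endothelial cells and 119 CPM in neutrophils. In tubule classes Psmb8 ran from 70.0 CPM in injured tubule cells and 58.8 CPM in principal cells to 14.7 CPM in distal convoluted tubule cells and 6.42 CPM in proximal tubule cells. Tap1 was at 148 CPM in dendritic cells, 101 CPM in T cells, 55.2 CPM in endothelial cells and 2.49 CPM in proximal tubule cells. Tap2 was highest in endothelial cells at 93.5 CPM and in T cells at 91.4 CPM, and was at 5.83 CPM in proximal tubule cells. Tapbp varied least, from 200 CPM in dendritic cells to 21.5 CPM in proximal tubule cells, with 112 CPM in principal cells. Nlrc5, the transactivator, was sparse throughout. It had 73 UMIs in T cells (32.1 CPM), 18 UMIs in dendritic cells (24.2 CPM) and 123 UMIs in all 44882 proximal tubule cells (0.470 CPM). In distal convoluted tubule cells Nlrc5 had 0 UMIs, and 3 UMIs there would be 1.57 CPM.

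**Figure D1:**
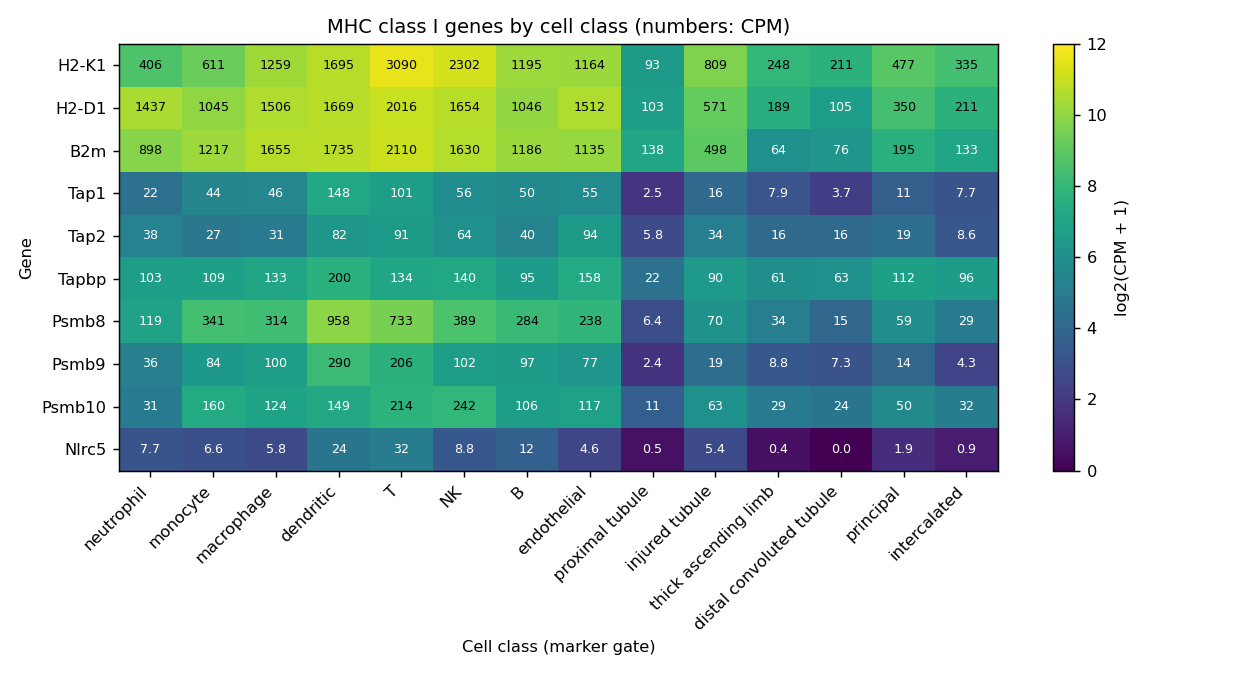
Level of each of the 10 genes (rows) in each of the 14 cell classes (columns), as CPM of the UMIs summed over the cells of a class from all 5 libraries, with colour on a log2(CPM + 1) scale. The proximal tubule column is the lowest for every gene except B2m and Nlrc5, with H2-K1 at 92.8 CPM there against 3090 CPM in T cells.

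Proximal tubule cells, the bulk of the kidney cortex, served as the reference for ratios. A gene was called at a ratio of at least 2-fold, among genes with at least 10 CPM in either class, and the share of all such genes that were called is given beside each count. All 10 members were at least 2-fold higher in neutrophils, where 18.9% of all tested genes were, and the same 10 of 10 held in monocytes (22.2% of all genes), macrophages (21.7%), dendritic cells (21.8%), T cells (24.7%), NK cells (24.4%) and B cells (19.8%). The median log2 ratio of the members was 2.96 in neutrophils, against −0.77 over all tested genes, and 4.68 in T cells, against −0.08. All 10 members reached the 10 CPM minimum in dendritic, T and B cells, and all but Nlrc5 in the other 4 immune classes. The largest ratios were those of Psmb8 and Psmb9. Psmb8 was 149-fold higher in dendritic cells and 114-fold higher in T cells than in proximal tubule cells, and Psmb9 was 121-fold and 85.7-fold higher. These are pooled ratios of classes with unequal library make-up, and libraries 1 and 2 held 39 and 59 of the 120 dendritic cells. Within these libraries the dendritic log2 ratio was 7.15 and 6.47 for Psmb8, against 7.22 pooled. For Psmb9 it was 6.56 and 6.59, against 6.91 pooled. In T cells the Psmb8 log2 ratio ran from 5.89 in library 3 to 8.45 in library 5, against 6.84 pooled. H2-K1 was 33.3-fold higher in T cells and 4.38-fold higher in neutrophils. The weakest immune ratio was Psmb10 in neutrophils at 2.84-fold, and within library 3 its log2 ratio was 0.20. In neutrophils Tapbp had a log2 ratio of −0.04 within library 1, from 48 cells.

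In endothelial cells, which line the vessels and face circulating leukocytes, all 10 members were also at least 2-fold higher. Of these, 9 reached 10 CPM and were called (all but Nlrc5), where 35.1% of all genes were. The median log2 ratio was 3.76 for the members and 0.48 for all tested genes. Psmb8 was 37.1-fold, Psmb9 32.1-fold, Tap1 22.1-fold, H2-D1 14.7-fold and H2-K1 12.6-fold higher than in proximal tubule cells. A list of 7 leukocyte genes used in no gate (Ptprc, Coro1a, Laptm5, Tyrobp, Srgn, Cd52 and Rac2) summed to 1210 CPM in endothelial cells, 25.7% of the lowest immune class. Srgn, which endothelial cells are known to express, made up 1026 CPM of this, and Ptprc, the pan-leukocyte marker CD45, was at 14.5 CPM. The list was at 1438, 1062 and 891 CPM in libraries 1 to 3, which held at least 20 endothelial cells each. The part of leukocyte RNA in the endothelial levels was not tested.

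The tubule classes beyond the proximal tubule were graded. In principal cells, the water- and sodium-handling cells of the collecting duct, 9 of 10 members were at least 2-fold higher than in proximal tubule cells, all but B2m, beside 25.5% of all genes. In thick ascending limb cells 7 of 10 were (18.9% of all genes), in distal convoluted tubule cells 6 of 10 (18.8%) and in intercalated cells 6 of 10 (22.5%). At least 2-fold lower were 14.5% of all genes in thick ascending limb cells, 15.2% in distal convoluted tubule cells, 14.1% in principal cells and 14.7% in intercalated cells. The members that also reached 10 CPM and were higher numbered 8 of 9 in principal cells, 5 of 7 in thick ascending limb cells, 5 of 7 in distal convoluted tubule cells and 5 of 6 in intercalated cells. The members higher in all 4 of these classes were H2-K1, Tapbp, Psmb8 and Psmb10, beside 13.4% of all genes. Without library 3, 2 members were higher in all 4, beside 14.2% of all genes. By the mean over cells 1 member was, and the all-gene share was not computed for it. Library 3 was the 1 library with at least 20 cells in each of the 4 classes, and 5 members were higher in all of them there (H2-K1, Tap1, Tapbp, Psmb8 and Psmb9), 4 of them among the 8 members at 10 CPM, beside 9.14% of all genes. Psmb8 was 9.16-fold higher in principal cells, 5.36-fold in thick ascending limb cells, 4.56-fold in intercalated cells and 2.28-fold in distal convoluted tubule cells. The heavy chain H2-D1, in contrast to H2-K1, had a log2 ratio of 0.03 (−0.17 to 0.23) in distal convoluted tubule cells. In principal cells the log2 ratio of B2m was 0.50 (0.37 to 0.63) pooled. Within libraries 1 to 5 it was 1.70, 0.96, −0.27, −0.34 and 0.33, so B2m was past 2-fold there in library 1.

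**Figure D2:**
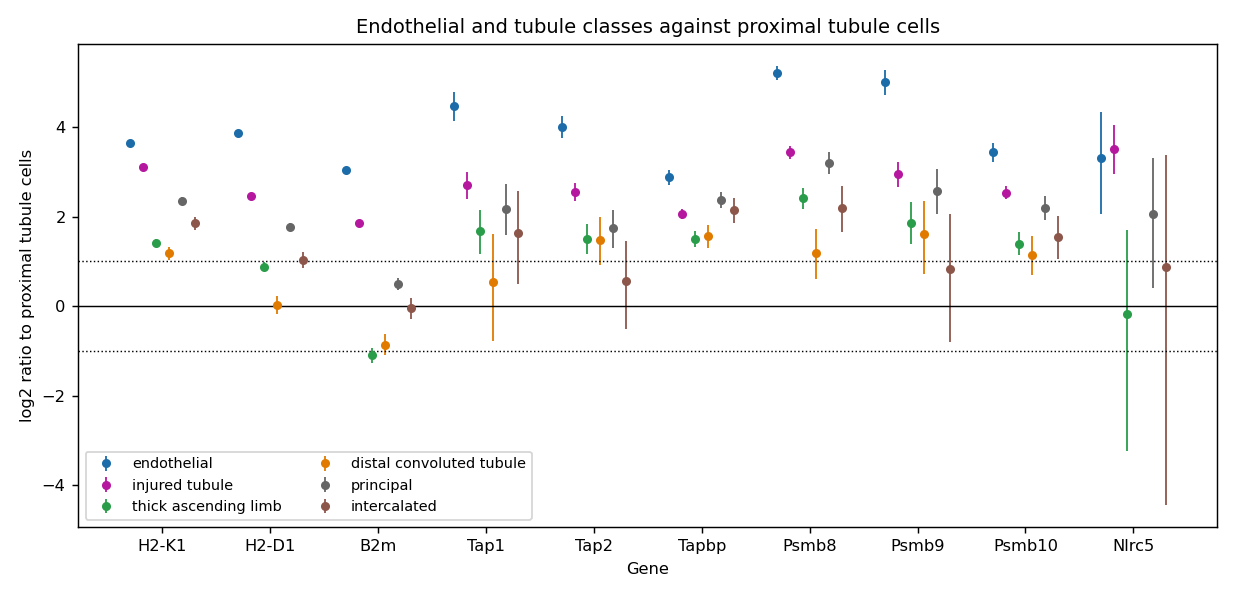
Log2 ratio of each gene to its level in proximal tubule cells for endothelial cells and 5 tubule classes, with bars for the exact 95% conditional binomial interval and dotted lines at 2-fold. B2m in thick ascending limb cells is the 1 point below the lower dotted line, and Nlrc5 has no point for distal convoluted tubule cells, where it had 0 UMIs.

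B2m and H2-K1 went opposite ways in the thick ascending limb, the salt-reabsorbing segment that dilutes the urine. B2m was the only member at least 2-fold lower there than in proximal tubule cells, with a log2 ratio of −1.09 (−1.26 to −0.93), while H2-K1 was 2.67-fold higher there. Within libraries 1 to 5 the B2m log2 ratio was −0.21, −1.26, −1.49, −2.16 and −0.74, and that of H2-K1 was 2.02, 1.02, 1.16, 1.05 and 2.14. The sign was the same in 5 of 5 libraries for each gene, with no intervals given within libraries. In library 1, B2m was at 115 CPM in thick ascending limb cells and 133 CPM in proximal tubule cells. Library 4 held only 27 thick ascending limb cells. B2m was found in 23.9% of 758 thick ascending limb cells and in 42.4% of proximal tubule cells at median depths of 5228.5 and 5117 UMIs, and H2-K1 in 57.1% and 31.2%. In distal convoluted tubule cells the B2m log2 ratio was −0.86 (−1.10 to −0.62) over all libraries, with 0.03 within library 1. The free RNA of the same libraries, read from the low barcodes, held B2m at 130 to 327 CPM, above the 36.6 to 115 CPM of thick ascending limb cells in the same set of libraries.

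Free RNA held more than proximal tubule cells in 5 of 5 libraries for 5 members, and in 4 of 5 libraries for the other 5. The same count was not made over all genes, so it does not show whether the members differ from other genes. For H2-K1, free RNA held 149, 253, 131, 186 and 128 CPM in libraries 1 to 5, and proximal tubule cells 123, 134, 77.3, 84.2 and 51.7 CPM, so free RNA was above the cells in 5 of 5 libraries. For Psmb8, free RNA held 25.9, 30.3, 12.8, 16.5 and 8.11 CPM and proximal tubule cells 7.04, 10.4, 6.43, 5.53 and 2.56 CPM. Tapbp in library 1 went the other way, at 10.8 CPM in free RNA and 23.9 CPM in the cells. The 7-gene leukocyte list was at 65.4 CPM in proximal tubule cells, 1.39% of the lowest immune class, and at 25.7%, 18.3%, 48.1%, 40.8% and 38.6% of its free RNA level by library. Taking the same percentage of free H2-K1 would amount to 31.2%, 34.6%, 81.7%, 90.4% and 95.8% of the H2-K1 of proximal tubule cells, and for Psmb8 to 94.7%, 53.6%, 96.0%, 122% and 122%. The barcodes read as free RNA held up to 121, 85, 489, 203 and 225 UMIs in libraries 1 to 5. Those of library 3 came close to the 500 UMI minimum for cells, and whether they held cells was not tested. The free RNA values of library 3 are therefore not fully comparable with the others. The part of free RNA in the proximal tubule levels was not tested.

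Injured tubule cells, gated by Havcr1 (the injury marker KIM-1), Krt20, Vcam1, Sox9, Dcdc2a and Fosl1, had all 10 members at least 2-fold above proximal tubule cells. Of these, 9 reached 10 CPM and were called (all but Nlrc5), where 23.3% of all genes were. The median log2 ratio was 2.63, against 0.39 over all tested genes. H2-K1 was 8.72-fold, Psmb8 10.9-fold, H2-D1 5.56-fold and B2m 3.61-fold higher. The leukocyte list was at 64.8 CPM in injured tubule cells, from 22.4 CPM in library 1 and 118 CPM in library 2 to 2.51 CPM in library 4, against 65.4 CPM in proximal tubule cells.

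The excess in injured tubule cells differed by library. H2-K1 was at 1551 CPM in library 1, 993 CPM in library 2 and 160 CPM in library 3, with an interval of 493 to 643 CPM in library 4, from 141, 175, 242 and 26 cells. B2m was at 766, 673, 154 and 401 CPM and Psmb8 at 92.4, 113, 13.5 and 65.2 CPM in the same order. Library 3 was the lowest for each of these genes, with an interval that did not overlap the others. Within library 3, 4 of 10 members were at least 2-fold above the proximal tubule cells of that library (H2-K1, Tapbp, Psmb8 and Psmb9, with log2 ratios of 1.05, 1.02, 1.07 and 1.03), and B2m had a log2 ratio of 0.05. Of all genes in library 3, 11.8% were at least 2-fold higher, and of the 7 members at 10 CPM there, 3 were. The 4-library spread was at least 2-fold for 10 of 10 members, beside 38.1% of all genes, and 9 of the 10 reached 10 CPM. Without library 3 it was 5 of 10, beside 26.8%. Library 1 was at least 2-fold above library 3 for 10 of 10 members, beside 18.3% of all genes, with H2-K1 9.70-fold (log2 ratio 3.28, 3.12 to 3.44) and Psmb10 2.08-fold. Tap1 was at 24.7 CPM in library 1 and 3.27 CPM in library 3, and Tap2 at 53.0 and 13.1 CPM. These 2 libraries were set against each other because they were the extremes.

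The injured cells of the libraries were not made up alike. Havcr1 gave 46.3% of the injury marker UMIs in library 3 and 21.6% in library 1, while Vcam1, known from tubule cells that failed to repair, gave 7.87% in library 3 and 40.0% in library 1. When each cell was set by the marker with the most UMIs, H2-K1 was higher in cells led by Vcam1 than in cells led by Havcr1 in each of 3 libraries. In Vcam1-led cells H2-K1 was at 1943 CPM (65 cells), 1177 CPM (69 cells) and 313 CPM (24 cells) in libraries 1 to 3, and in Havcr1-led cells at 599 CPM (25 cells), 773 CPM (49 cells) and 119 CPM (101 cells). This split was made after the library values had been seen, and the part of the marker make-up in the library values was not tested. Mitochondrial genes held 6.57%, 6.01%, 9.06% and 6.44% of the UMIs of injured cells in libraries 1 to 4. Their median depths were 9110, 10110, 7626.5 and 9961 UMIs. The part of depth and mitochondrial share in the library values was not tested. The condition of library 3, its pool of mice and its handling cannot be told apart.

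**Figure D3:**
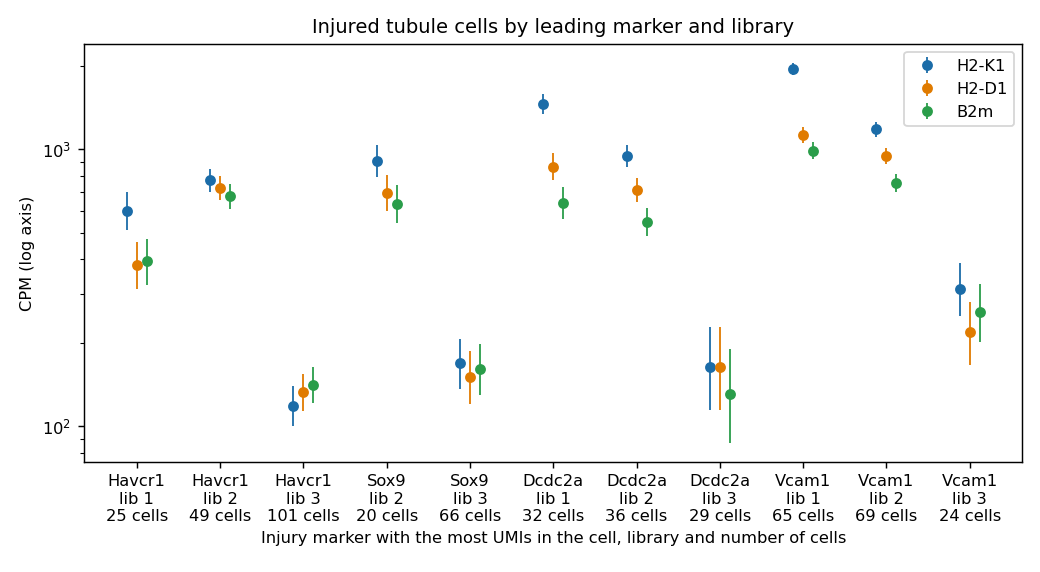
H2-K1, H2-D1 and B2m in injured tubule cells, set apart by the injury marker with the most UMIs in the cell and by library, in CPM on a log axis with exact 95% Poisson bars (groups under 20 cells are left out). H2-K1 runs from 119 to 313 CPM in the 4 library 3 groups.

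H2-K1 was also low in library 3 in T cells, macrophages and endothelial cells. In T cells H2-K1 was at 4241, 2682, 1489, 2753 and 2770 CPM in libraries 1 to 5. In macrophages it was at 2013, 1059, 636, 777 and 1615 CPM, and in endothelial cells at 1550, 991 and 676 CPM in libraries 1 to 3. Library 1 was highest and library 3 lowest for H2-K1 in each of these 3 classes. Proximal tubule markers were at 5.23, 4.31, 13.4, 10.0 and 12.8 UMIs per 10000 in T cells of libraries 1 to 5. The leukocyte list was at 8727, 8367, 6268, 10520 and 8403 CPM in these cells. The markers were at 3.82, 4.19, 7.31, 6.75 and 18.35 in macrophages, and at 2.75, 6.33 and 8.83 in endothelial cells of libraries 1 to 3. The part of tubule RNA in the library values was not tested. Library 1 was above library 3 in 10 of 10 members in T cells, where 45.5% of all genes were, in 10 of 10 in endothelial cells (51.6%), in 8 of 10 in macrophages (38.7%) and in 10 of 10 in principal cells (65.8%). Library 1 was above library 3 in 7 of 10 members in neutrophils (45.7%), and in distal convoluted tubule cells in 4 of 10 (55.4%). In macrophages the 2 exceptions were Psmb10 and Nlrc5, and B2m differed little, at 1743 CPM in library 1 and 1679 CPM in library 3. Over all libraries, 6 of 10 members were at least 2-fold apart in macrophages, beside 75.8% of all genes, and 5 of 10 in endothelial cells, beside 39.7%, which are shares near those of other genes. Without library 3 these counts were 3 of 10 in macrophages, beside 64.6% of all genes, and 1 of 10 in endothelial cells, beside 19.2%. Without library 1 the endothelial count was 3 of 10, and the all-gene share was not computed for it.

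Proximal tubule cells had another order. Library 2 was the highest for 9 of 10 members and library 5 the lowest for all 10. The share of all genes with library 2 highest or library 5 lowest was not computed. B2m was at 133, 165, 148, 164 and 74.3 CPM in libraries 1 to 5. Psmb10 was the exception and was highest in library 3, at 19.7 CPM against 5.06 to 9.74 CPM in the others. In proximal tubule cells 9 of 10 members were at least 2-fold apart between libraries, beside 17.2% of all genes. Only 5 members reached 10 CPM in proximal tubule cells, and 4 of these were apart. Without library 5, 2 of 10 were apart, beside 14.8% of all genes. In free RNA, B2m was at 130, 306, 269, 327 and 188 CPM in libraries 1 to 5, lowest in library 1 and highest in library 4, and the leukocyte list was at 193, 614, 174, 158 and 18.3 CPM. The part of free RNA in the order was not tested.

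**Figure D4:**
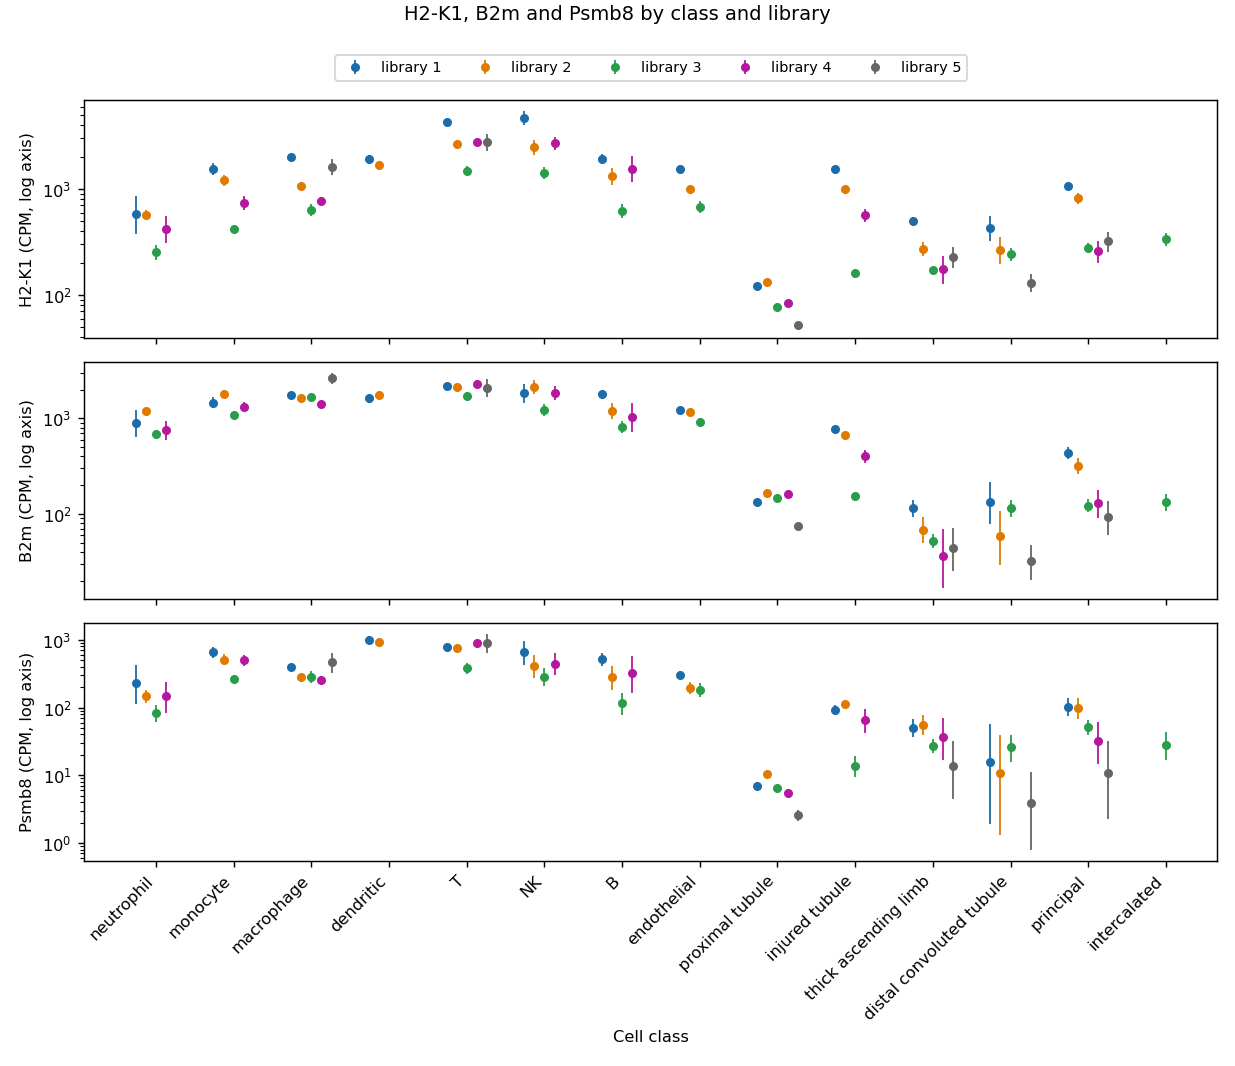
H2-K1, B2m and Psmb8 by cell class and library in CPM on a log axis, with exact 95% Poisson bars and only classes with at least 20 cells in the library. Library 3 lies lowest for H2-K1 in T cells (1489 CPM) and in injured tubule cells (160 CPM), while library 5 lies lowest in proximal tubule cells (51.7 CPM).

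The transcripts of paired catalytic proteasome subunits were compared within each class, as the summed UMIs of the immunoproteasome subunit as a share of its own and its constitutive partner's UMIs. These are shares of transcripts and do not show which subunits the proteasomes held. Psmb8 was 83.8% (81.1 to 86.2) of Psmb8 and Psmb5 in dendritic cells, 78.3% in T cells, 63.3% in NK cells, 57.0% in macrophages, 56.7% in endothelial cells, 56.4% in B cells and 53.8% in monocytes. Neutrophils were at 40.3% (35.3 to 45.3), with equal UMIs of both genes in library 1, 49.7% and 48.5% in libraries 2 and 4, and 29.1% in library 3. Lower still were principal cells at 17.8%, injured tubule cells at 14.5%, thick ascending limb cells at 9.74%, intercalated cells at 9.66%, distal convoluted tubule cells at 4.75% and proximal tubule cells at 2.01% (1.92 to 2.11). Pooled over libraries, the share was over 50% in 7 of 14 classes, which were all immune classes but neutrophils, and endothelial cells. It was over 50% in 6 classes with the stricter gate and without library 1. Within library 3 it was under 50% in monocytes at 45.6% (42.6 to 48.7), macrophages at 45.4% (38.5 to 52.5) and B cells at 29.7% (21.0 to 39.6), as well as in endothelial cells. In the 3′ end of Psmb5, 47.6% of the 90-base words are shared with Gm3375, so the Psmb5 count and the Psmb8 share are uncertain.

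In the other pairs proximal tubule cells were again the lowest when pooled over libraries, and the highest class differed. For Psmb9 the interval of intercalated cells, at 1.53% (0.498 to 3.53), overlapped that of proximal tubule cells. Psmb9 was 57.3% of Psmb9 and Psmb6 in dendritic cells, 51.4% in T cells, 26.9% in endothelial cells and 1.02% in proximal tubule cells. Psmb10 was 70.7% of Psmb10 and Psmb7 in T cells, 70.3% in NK cells, 63.1% in dendritic cells, 57.5% in endothelial cells, 33.9% in injured tubule cells and 8.29% in proximal tubule cells. The partner Psmb6 ran only from 118 CPM in neutrophils to 335 CPM in injured tubule cells. By library, the Psmb8 share in injured tubule cells was 18.9%, 22.9%, 2.77% and 17.1% in libraries 1 to 4, with library 3 again the lowest. In endothelial cells it was 64.9%, 58.2% and 41.3% in libraries 1 to 3, and in T cells 79.9%, 79.6%, 66.1%, 77.7% and 73.6% in libraries 1 to 5.

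**Figure D5:**
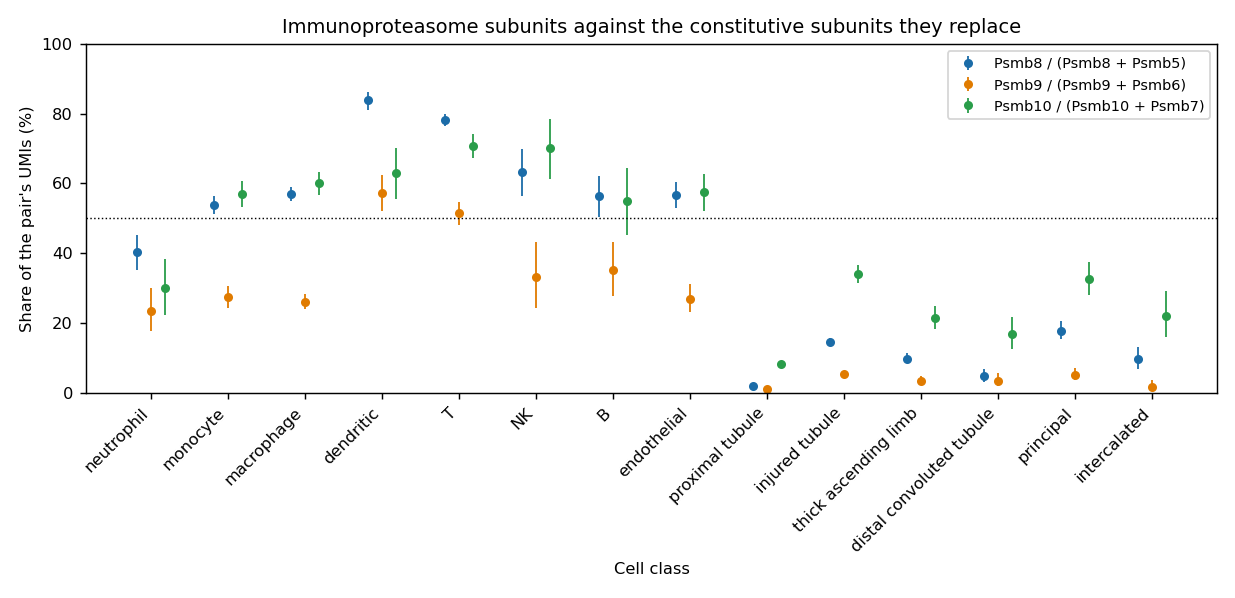
Share of each immunoproteasome subunit in the UMIs of the subunit and its constitutive partner by cell class, in percent, with exact 95% binomial bars and a dotted line at 50%. Psmb8 lies above the line in 7 classes and at 2.01% in proximal tubule cells, and Psmb9 lies below Psmb8 in each class.

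Of 16 further genes of the pathway, all reached 10 CPM in T, NK, B and endothelial cells, and 10 were at least 2-fold above proximal tubule cells in each, beside the all-gene shares of 24.7%, 24.4%, 19.8% and 35.1%. In macrophages and in dendritic cells 9 of 16 were, and in injured tubule cells 8 of 16. Of those at 10 CPM, 7 of 15 were higher in monocytes, 4 of 13 in neutrophils, 6 of 14 in principal cells and 4 of 13 in intercalated cells. The all-gene shares in these 7 classes ran from 18.9% in neutrophils to 25.5% in principal cells. In thick ascending limb cells 1 of 12 and in distal convoluted tubule cells 2 of 12 were, beside 18.9% and 18.8% of all genes. At least 2-fold lower were 4 of 13 in neutrophils (Calr, Canx, Pdia3 and H2-T22), where 44.6% of all genes were lower, and 1 each in intercalated and thick ascending limb cells. The proteasome activator subunits Psme1 and Psme2 were 9.17-fold and 6.20-fold higher in T cells, and 3.29-fold and 2.52-fold higher in injured tubule cells. The non-classical heavy chain H2-Q7 was at 1095 CPM in T cells, 801 CPM in NK cells, 247 CPM in dendritic cells and 3.71 CPM in proximal tubule cells. Another, H2-T23, was 6.41-fold higher in T cells and had a log2 ratio of −2.07 in thick ascending limb cells. The general folding chaperones differed from the members: Calr, which also loads class I, had log2 ratios from −1.55 in neutrophils to 0.49 in macrophages.

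The inducers and regulators were uneven. Ifng was at 144 CPM in T cells and 70.1 CPM in NK cells, and at 1.73 CPM or less in every other class. Irf1, an interferon-induced transcription factor, was highest in endothelial cells at 450 CPM, against 132 CPM in injured tubule cells and 15.6 CPM in proximal tubule cells. In injured tubule cells Irf1 was at 250, 157, 38.0 and 57.7 CPM in libraries 1 to 4. The receptor subunit Ifngr1 was at 990 CPM in NK cells, 687 CPM in T cells and 36.5 CPM in proximal tubule cells. The level of a single subunit does not show which class had the most of the whole receptor. Ciita, the class II counterpart of Nlrc5, was at 121 CPM in dendritic cells and 62.3 CPM in B cells, and had 0 UMIs in T cells, where Nlrc5 was highest.

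Single cells showed the same contrast at equal depth. With each cell thinned to 1000 UMIs, H2-K1 was found in 91.9% of T cells, 40.6% of injured tubule cells and 8.29% of proximal tubule cells, against 97.6%, 81.2% and 31.2% before thinning, with 81, 10 and 5256 shallower cells left out. Psmb8 was found in 53.3% of thinned dendritic cells and 0.611% of thinned proximal tubule cells. Nlrc5 was seen in 6.15% (4.81 to 7.73) of T cells and in 0.265% of proximal tubule cells before thinning. The share in proximal tubule cells is read beside the free RNA values above.

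Across the 14 classes, the genes outside the members whose log2(CPM + 1) was most like the mean standardised level of the 10 members were Cnn2 (Pearson r = 0.954), Ifi35 (0.951), Tpm3 (0.947), Rps9 (0.947), Ifnar1 (0.944), Nr4a2 (0.938), Ccnd2 (0.935), Ppp4c (0.93), Parp14 (0.929) and Zc3hav1 (0.925), among 6286 genes at 50 CPM or more in at least 1 class. The classes share libraries and depth, so r is a description. Of the members, Psmb8 and Tap1 lay closest to that mean (both 0.988) and Tapbp farthest (0.864), and the constitutive Psmb5 had r = −0.644. Each member is part of that mean, so its r is raised by the design and is not comparable with those of genes outside it.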

How the data were processed

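The authors deposited 1 matrix of raw UMI counts for 32285 genes and 10474594 barcodes, aligned to mm10 and counted with Cell Ranger 6.0 per the labels, with the 5 libraries merged and no cells called. Cells were called here in each library from depth (at least 10% of the 99th percentile of the top 3000 barcodes) or from a multinomial comparison with free RNA (barcodes at ranks 45000 to 90000, at least 500 UMIs, 10000 simulations, adjusted p of at most 0.01). At most 20000 barcodes of a library entered this comparison. Library 3 reached that number, so its lowest depth was 661 UMIs and not 500. Cells had at least 200 genes and at most 25% of UMIs on 13 mitochondrial genes. A class needed a marker score of at least 0.1, 2 distinct markers and 3 marker UMIs, with the next class at most 0.5 of it. The score is the marker UMIs per 10000 relative to the mean of the 200 highest cells. No doublets were removed, except in 1 alternative. UMIs were summed by class and library. With 1 pooled sample there was no test. Libraries needed 20 cells of a class. The named genes were the members, a pathway list, a regulator list, leukocyte and goblet cell lists, and the 10 genes most like the members. Of the regulator list, 1 gene is not reported here. The members, lists and tests were chosen with earlier results of these data known. Calling and ratios were tested on simulated data of the same genes. Python 3.11.15, numpy 2.4.6, scipy 1.17.1, pandas 2.3.3, numba 0.67.0 and scanpy 1.11.5 (Scrublet) were used. Alternatives covered calling, limits, gate, doublets, scaling, form of the mean and libraries. The spatial sections of the study were not analysed here.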

Additional observations from a re-analysis of the deposited data

Results flagged for a closer look

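H2-K1 was also present in cells that entered none of the comparisons above, over the limit set by 3 UMIs. In 93 cells gated as fibroblasts or pericytes H2-K1 was at 770 CPM (695 to 851), and in 125 podocytes at 712 CPM (635 to 796), both above proximal tubule cells at 92.8 CPM. In podocytes B2m was at 580 CPM and Psmb8 at 63.9 CPM. In 12144 called cells left out for a mitochondrial share over 25%, H2-K1 was at 179 CPM (174 to 184) with mitochondrial genes left out of the total, against 106 CPM in proximal tubule cells on the same scale. No marker gate was applied to these 12144 cells, so their mix of classes is not known. In fibroblasts or pericytes H2-K1 was at 1147 CPM in library 1 and 501 CPM in library 2, and without library 1 it was at 317 CPM (248 to 400). With each library left out in turn, the podocyte value was 626 to 811 CPM. These leave-outs were chosen after seeing the data. These values come from pooled UMIs, and no library or condition was tested.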

How the results depend on the processing

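All 10 members stayed at least 2-fold above proximal tubule cells in endothelial cells and, pooled over libraries, in injured tubule cells under other calling, gene and mitochondrial limits, gates, doublet removal, scaling and averages. Within single libraries, 7 to 10 were in every immune class with at least 20 cells there and 9 to 10 in endothelial cells. All-gene shares were not computed for these counts. In injured tubule cells 4 members were at least 2-fold higher within library 3, beside 11.8% of all genes. The members higher in all 4 distal classes were 4, against 1 by the mean over cells, 2 to 5 with each library left out and 5 within library 3, the only one with all 4 classes. Within library 2 it was 1 over 3 of the classes. The all-gene share was 13.4% pooled, 14.2% without library 3 and 9.14% within library 3, and was not computed for the other settings. Members at least 2-fold apart between libraries were 2 to 9 in proximal tubule cells, 1 to 5 in endothelial cells, 3 to 6 in macrophages and 5 to 10 in injured tubule cells with each library left out. The lowest values are those without library 5 in proximal tubule cells and without library 3 in the others, and this leave-out was added after seeing the data. Beside these lowest values, 14.8% of all genes were apart in proximal tubule cells and 19.2% in endothelial cells. In macrophages and injured tubule cells 64.6% and 26.8% of all genes were. All-gene shares were not computed for the other leave-outs. In proximal tubule cells, 4 members were detected in 10% or more of the cells, and 1 after thinning to 1000 UMIs. Median-of-ratios scaling changed the totals relative to proximal tubule cells by −0.61 (neutrophils) to 0.32 (injured tubule cells) on the log2 scale, and the log2 ratios by the opposite amount. All 10 members stayed 2-fold higher in every immune class with it. For T, endothelial, injured tubule and thick ascending limb cells, 363 log2 ratios of single genes stayed within their interval and 322 did not, and none that was called changed sign. Outside these classes, Tapbp in neutrophils had −0.04 within library 1 and Tap2 in distal convoluted tubule cells −0.53 within library 2, against 2.26 and 1.48 pooled. The cause of these shifts was not tested. No paired analysis was possible because each group has 1 sample and the columns carry no replicate. Counts of a few UMIs limit Nlrc5, Tap1 and Psmb9 in distal classes.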
